A study of Saccharomyces cerevisiae with 6 samples.

Results

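The hexose transporters are a family of sugar permeases of the plasma membrane of the budding yeast Saccharomyces cerevisiae. The genes described here are those whose annotated symbol is HXT1, HXT2, HXT3, HXT4, HXT5, HXT7, HXT8, HXT9, HXT10 or HXT11, which gave 10 genes read by 11 probe sets, of 5449 named genes and 5716 probe sets in all. The rule picks them by symbol alone, and the family was taken up with earlier results of these data known. Their messenger RNA was measured in a strain whose histone H4 carries H4R45H, a change of arginine to histidine at residue 45, and in the wild-type strain WY139, which has unmutated histone H4. Each strain has 3 one-colour oligonucleotide arrays of total RNA, all from cultures in YPD (rich medium that contains glucose) taken in mid-log phase, at an optical density of 0.5 to 0.7. The labels give no further genotype, and they leave unsaid whether the 3 arrays of a strain stem from independent cultures. The p-values therefore reflect array-to-array spread, part or all of which could be technical. The comparison shows how transcript levels differ between cells with and without this 1 substitution in H4.

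Yeast takes up glucose by facilitated diffusion through these carriers, which differ in affinity and in the sugar level at which their genes are used. Both sensing at the cell surface and repression in the nucleus set that use. The sensors Snf3 and Rgt2 relieve repression by Rgt1 when glucose is present. The repressor Mig1 keeps the high-affinity carriers low when glucose is plentiful, and the kinase Snf1 relieves that repression when glucose is scarce. HXT1 and HXT3 encode low-affinity carriers used at high glucose. HXT2, HXT4 and HXT7 encode carriers of higher affinity used at low glucose, and HXT5 encodes a carrier known from slow growth and from use of reserves. HXT8 to HXT11 are the cryptic members, which add little to glucose uptake in normal growth.

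Signals are given on the linear scale of the deposited table, with a mean per array of 277 to 280 in H4R45H and 284 to 287 in wild type. They cannot be set against each other between genes, because each probe set has its own response. The highest signal on any array was 2339, and whether bright genes are compressed near that level was not tested. Pearson correlations between arrays, taken over probe sets (which are not replicates) on the log2 scale, were 0.99 to 0.995 between H4R45H arrays, 0.935 to 0.958 between the strains and 0.993 to 0.994 between wild-type arrays.

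As deposited, the 2 high-glucose carriers were lower in H4R45H and the other 8 carriers were higher. The differences of HXT3 and HXT8 did not hold under some other scalings of the signals, as given below. Of the 10 genes 8 rose and 2 fell at an adjusted p under 0.05 in limma, a linear model with a moderated variance, adjusted by the Benjamini-Hochberg method over all 5716 probe sets. Over all 5449 genes 37.1% were called higher and 29.1% lower, so a call alone sets no gene apart in these data. Rises of at least 2-fold were called for 5 of the 10 genes, against 8.88% of all genes. The 3 arrays of H4R45H lay above the 3 of wild type for 8 genes and below them for 2, while over all genes this was so for 39.8% and 31.6%. The median log2 difference, H4R45H minus wild type, was 1.19 over the 10 genes and 0.05 over all genes.

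**Figure D1:**
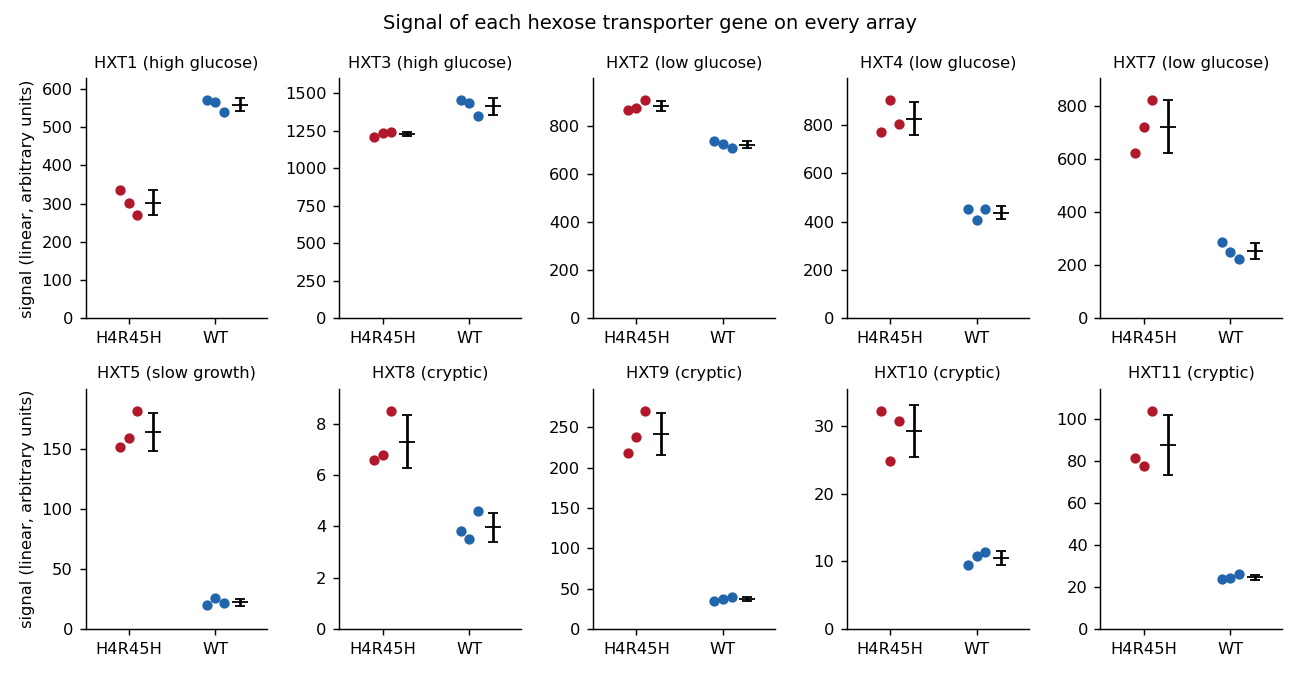
Signal (linear, arbitrary units, each panel with its own axis from 0) of the 10 hexose transporter genes on the 3 H4R45H arrays (red) and the 3 wild-type arrays (blue, WT). Points are arrays in the order of their replicate number, and black bars are mean and SD. The strains do not overlap in any panel. HXT1 and HXT3 are lower in H4R45H, and the other 8 genes are higher.

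HXT1 (YHR094C) is the main low-affinity carrier of cells in abundant glucose. Its signal was 334.6, 301.9 and 270.1 on the H4R45H arrays, against 570.6, 566.4 and 540.9 on the wild-type arrays. All H4R45H arrays were thus well below the lowest wild-type array, and they were also more spread, with a coefficient of variation of 10.7% in H4R45H and 2.87% in wild type. The means were 302 ± 32.3 in H4R45H and 559 ± 16.1 in wild type (SD, n = 3 each), so HXT1 fell by 0.89 on the log2 scale, a level 1.86-fold lower (SE 0.076, adjusted p = 3.5e-06 in limma). Ordered from the most negative log2 difference, HXT1 was at place 42 of 5449 genes.

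HXT3 (YDR345C) encodes a low-affinity carrier that is used over a wide range of glucose. Its signal was 1210.1, 1233.0 and 1239.4 in H4R45H, against 1452.1, 1433.4 and 1346.5 in wild type. The strains did not overlap, but the step between them was small beside that of HXT1. The log2 difference was -0.20 (SE 0.044, adjusted p = 0.0022 in limma), or 1.15-fold lower in H4R45H. Quantile normalization ended this call (-0.05, adjusted p = 0.26), as did cyclic loess (-0.02, adjusted p = 0.58), both of which force the arrays to a common distribution or trend. The log2 ratio of HXT1 to HXT3 within an array, which no common factor for an array can alter, changed by -0.69 between the strains, with an SD of 0.17 in H4R45H and 0.017 in wild type (n = 3 each).

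The 3 low-glucose genes all rose. HXT2 (YMR011W) encodes a carrier of high affinity. It had signals of 867.6, 872.5 and 906.9 in H4R45H, against 736.2, 724.8 and 706.2 in wild type, with tight replicates in both strains. Its log2 difference of 0.29 (SE 0.046, adjusted p = 2.8e-04 in limma) was the smallest among the 8 rises. HXT4 (YHR092C), a carrier known to be repressed by abundant glucose, had signals of 770.6, 902.1 and 803.5 in H4R45H, against 451.9, 407.6 and 451.3 in wild type. Every H4R45H array thus exceeded the highest wild-type array by far more than the spread within either strain. The means were 825 ± 68.4 in H4R45H and 437 ± 25.4 in wild type (SD, n = 3 each), a rise of 1.89-fold (log2 difference 0.92, SE 0.069, adjusted p = 1.6e-06 in limma).

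HXT7 (YDR342C) is one of a pair of near-identical genes with HXT6, and both encode carriers of the highest affinity in the family. The probe set named for HXT7 is marked as shared between transcripts, and no probe set was named for HXT6, so the signal is that of HXT7 with any HXT6 it binds. It was 621.4, 719.5 and 820.9 in H4R45H, against 286.2, 249.9 and 223.3 in wild type. The lowest H4R45H array was more than the highest wild-type array, although the coefficient of variation reached 13.8% in H4R45H and 12.5% in wild type. The level was 2.84-fold higher in H4R45H (log2 difference 1.51, SE 0.11, adjusted p = 1.1e-06 in limma). The log2 difference of the class had a median of 0.92, which was 0.60 over HXT2 and HXT4 alone.

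HXT5 (YHR096C), the carrier of slow growth, had the largest rise of the 10 genes as deposited. Its signal was 151.0, 159.0 and 181.4 in H4R45H, against 20.0, 25.5 and 21.3 in wild type. The wild-type signals were far below the array median of 148 to 151 in that strain, and the H4R45H signals lay around the array median of 159 to 163. The means of 164 ± 15.8 in H4R45H and 22.3 ± 2.87 in wild type (SD, n = 3 each) gave a 7.37-fold rise (log2 difference 2.88, SE 0.11, adjusted p = 2.9e-08 in limma), at place 5 from the top among all 5449 genes. Because the wild-type signal is low, the fold depends on the floor of the scale. It was 2.95-fold when 50 was added to every signal.

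HXT9 and HXT11 are near-identical in their proteins and are known as targets of the drug resistance regulators Pdr1 and Pdr3. HXT9 (YJL219W) had signals of 218.4, 237.6 and 270.5 in H4R45H, against 34.1, 37.7 and 39.5 in wild type. The means were 242 ± 26.3 in H4R45H and 37.1 ± 2.75 in wild type (SD, n = 3 each), a rise of 6.51-fold (log2 difference 2.70, SE 0.094, adjusted p = 2.2e-08 in limma), at place 10 from the top among all genes. A second probe set named for HXT9, marked as shared between transcripts, had 150.0, 144.2 and 155.7 in H4R45H, against 35.0, 36.1 and 27.9 in wild type. Both probe sets thus separated the strains, with a smaller rise of 4.57-fold in the second (log2 difference 2.19, SE 0.10, adjusted p = 7.1e-08 in limma). With 50 added to every signal the rises were 3.35-fold and 2.41-fold.

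HXT11 (YOL156W) was read by a probe set of the type made for 1 transcript. Its signal was 81.3, 77.7 and 103.8 in H4R45H, against 23.8, 24.2 and 26.0 in wild type. The strains did not overlap, and 1 H4R45H array stood above the other two. The rise was 3.52-fold (log2 difference 1.82, SE 0.12, adjusted p = 4.9e-07 in limma), and 1.84-fold with 50 added. The log2 ratio of HXT9 to HXT11 within an array changed by 0.89 (SD 0.12 in H4R45H and 0.062 in wild type, n = 3 each), so the 2 probe sets did not change alike. Which transcripts each of the HXT9 and HXT11 probe sets binds was not tested.

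HXT10 and HXT8 were dim in both strains. HXT10 (YFL011W) had signals of 32.2, 24.8 and 30.7 in H4R45H, against 9.4, 10.8 and 11.4 in wild type, without overlap. Its rise was 2.77-fold (log2 difference 1.47, SE 0.14, adjusted p = 1.0e-05 in limma), and it was called at 1.49-fold after quantile normalization, 1.71-fold after cyclic loess and 1.31-fold with 50 added. HXT8 (YJL214W) had 6.6, 6.8 and 8.5 in H4R45H, against 3.8, 3.5 and 4.6 in wild type, at the 1.41 percentile of all probe sets by mean signal. The gap of 3.33 signal units between the means passed the test as deposited (log2 difference 0.88, SE 0.23, adjusted p = 0.0066 in limma). It was lost after quantile normalization (0.20, adjusted p = 0.43) and turned to -0.04 after cyclic loess (adjusted p = 0.88). No detection calls were given in the sources used here, so whether HXT8 was above background was not tested.

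Over all genes 37.1% were called higher and 29.1% lower. Set side by side, the high-glucose class had 2 of 2 genes lower (median log2 difference -0.55), the low-glucose class 3 of 3 higher (median 0.92), HXT5 was higher by 2.88, and the cryptic class had 4 of 4 higher (median 1.64). After quantile normalization these medians were -0.45, 0.99, 2.49 and 0.96, and after cyclic loess -0.41, 1.05, 2.56 and 1.08. The order of the cryptic and low-glucose medians thus depended on the scaling, and the sign of each did not. After these scalings HXT3 was at -0.05 and -0.02 without a call, so the high-glucose median there came mostly from HXT1. With calls required under quantile normalization, cyclic loess, median centring and the loss of any 1 array, HXT1 remained lower and HXT2, HXT4, HXT5, HXT7, HXT9, HXT10 and HXT11 remained higher. HXT3 and HXT8 did not remain called.

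**Figure D2:**
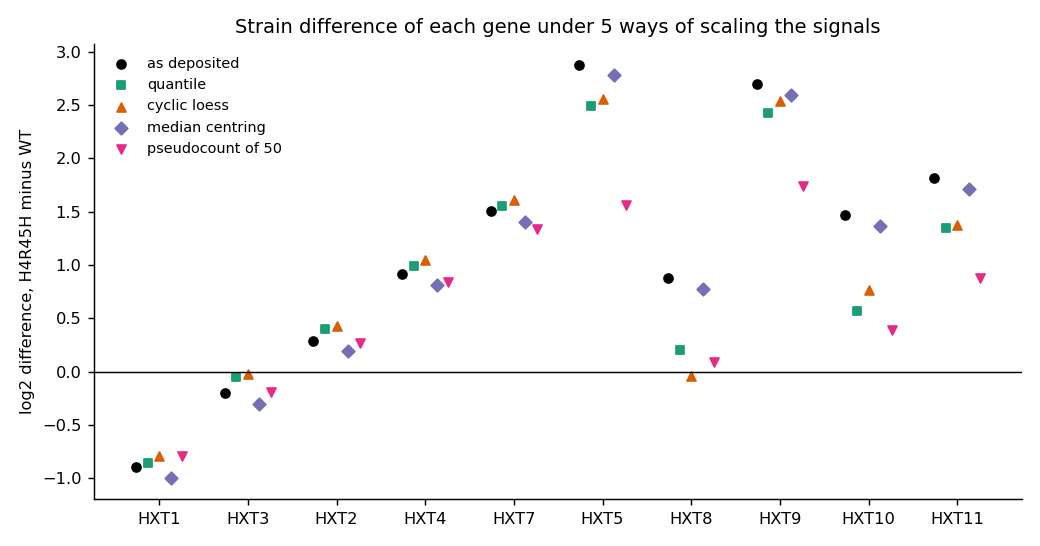
Log2 difference (H4R45H minus wild type) of the 10 genes with the signals as deposited and under 4 other scalings. HXT1 stays at -0.79 or below and HXT7 between 1.34 and 1.61, while HXT8 moves from 0.88 as deposited to -0.04 after cyclic loess and HXT3 from -0.20 to -0.02.

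Low signals tended to be higher in the mutant and high signals lower, so each gene was set beside the probe sets of like mean signal, in 20 classes of equal size. In the class of HXT1 and HXT7 the median log2 difference was -0.10 (285 probe sets), and 6 had a more negative difference than HXT1 and 3 a larger one than HXT7. In the class of HXT5 the median was 0.37, and in that of HXT9 it was 0.14. None of the other 285 probe sets in either class had a larger difference than HXT5 or HXT9. HXT4 had 12 probe sets above it in a class with a median of -0.10, and HXT11 had 15 above it in a class with a median of 0.44.

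HXT2 lay in a bright class of which 60.1% was called lower and 13.6% higher, and 20 of its 286 probe sets had a larger difference. HXT3 and HXT8 sat near the middle of their classes. The class of HXT3 had a median of -0.18 with 73.1% of its probe sets called lower, and that of HXT8 had a median of 0.78 with 57.7% called higher. HXT10 shared the class of HXT8, and 61 of the 286 probe sets there had a larger difference than HXT10. These places among like probe sets are descriptions with no test. Since the classes use the mean over all 6 arrays, a gene that rises or falls also moves its own class.

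**Figure D3:**
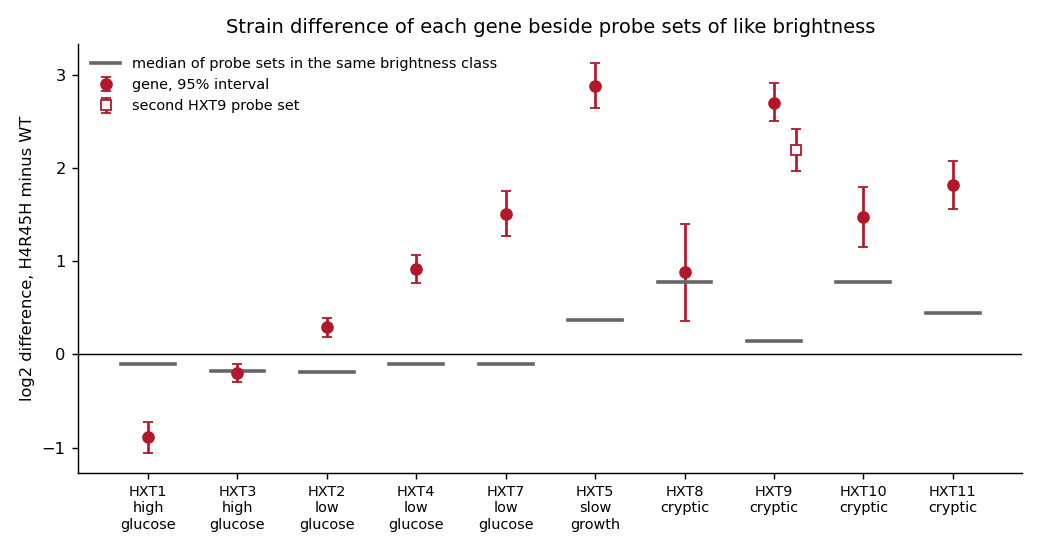
Log2 difference (H4R45H minus wild type) of each gene with its 95% interval from limma (red), and the median of all probe sets in the same class of mean signal (grey bars). HXT3 and HXT8 lie near their class medians of -0.18 and 0.78, HXT1 lies below its class median, and the other genes lie above theirs. The open square is the second HXT9 probe set.

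The H4R45H arrays differed among themselves in these genes. H4R45H replicate 3 had the highest signal for 6 of the 8 genes that rose and the lowest for HXT1. Over the 2022 genes called higher in the whole series the same array was highest for 54.2%. Without it HXT1 had a log2 difference of -0.81 and HXT7 one of 1.41, and all 10 calls were kept. In wild type the highest array for the 8 genes was replicate 1 for 3 genes, replicate 2 for 1 and replicate 3 for 4.

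Some genes next to each other on the chromosome moved in opposite directions, and others moved alike. HXT4, HXT1 and HXT5 follow each other in the RefSeq gene order (assembly R64) with no other measured gene between them, and their log2 differences were 0.92, -0.89 and 2.88. The log2 ratio of HXT4 to HXT1 within an array changed by 1.81 (SD 0.22 in H4R45H and 0.11 in wild type, n = 3 each), and that of HXT5 to HXT1 by 3.78 (SD 0.29 in H4R45H and 0.18 in wild type). Of the 4 measured genes around this group 2 fell and 2 did not pass. SFB3, a coat protein of secretory vesicles, fell by 0.30 on the log2 scale, TRA1, a subunit of the SAGA and NuA4 acetyltransferases, fell by 0.27, while MSR1 and YNG2 lay on the other side.

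HXT7 and HXT3 also neighbour each other among measured genes, with HXT6 between them. Their log2 differences were 1.51 and -0.20, and the call of HXT3 was lost after quantile normalization and cyclic loess. The log2 ratio of HXT7 to HXT3 within an array changed by 1.71 (SD 0.18 in H4R45H and 0.13 in wild type, n = 3 each). YDR341C and SVF1, the nearest measured genes outside this pair, fell by 0.41 and 0.36 on the log2 scale. Beside HXT2, PLB1 rose by 0.33 and CLU1 fell by 0.36.

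HXT9 and HXT8 share a chromosome arm. No measured gene lay outside HXT9 on that arm, and the next one inwards, YJL218W, fell by 0.62 on the log2 scale, while REE1 beyond it fell by 0.20 as deposited and had -0.04 after quantile normalization (adjusted p = 0.41). On the sides of HXT8, YJL213W rose by 0.86, IMA5 rose by 0.45 and OPT1 fell by 0.39. The IMA5 value turned to -0.28 after quantile normalization (adjusted p = 0.066). HXT11 had YOL159C-A, YOL155W-A and HPF1 higher, at 1.06, 1.01 and 0.42, and ENB1, a siderophore transporter between YOL159C-A and HXT11, lower at -0.63. Beside HXT10, YFL012W rose by 1.07 and the other 3 did not pass. YOL155W-A and YFL012W were dim, and their calls did not hold under quantile normalization, with 0.20 for YOL155W-A (adjusted p = 0.13) and 0.12 for YFL012W (adjusted p = 0.39).

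In all, the 2 nearest measured genes on each side gave 25 genes outside the 10 transporters, of which 8 rose and 9 fell, with a median log2 difference of -0.07. Of all genes 37.1% were called higher and 29.1% lower, so these counts lie near the background. After quantile normalization 5 of the 25 were higher and 11 lower. As deposited, the cryptic genes had 6 higher and 4 lower of 13 neighbours, and the other transporters had 2 higher and 5 lower of 12. Under quantile normalization the calls of IMA5, YFL012W and YOL155W-A among those 6 were lost, as was that of REE1 among those 4. The genes named here beyond the largest 2 per transporter were picked after their values were seen.

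**Figure D4:**
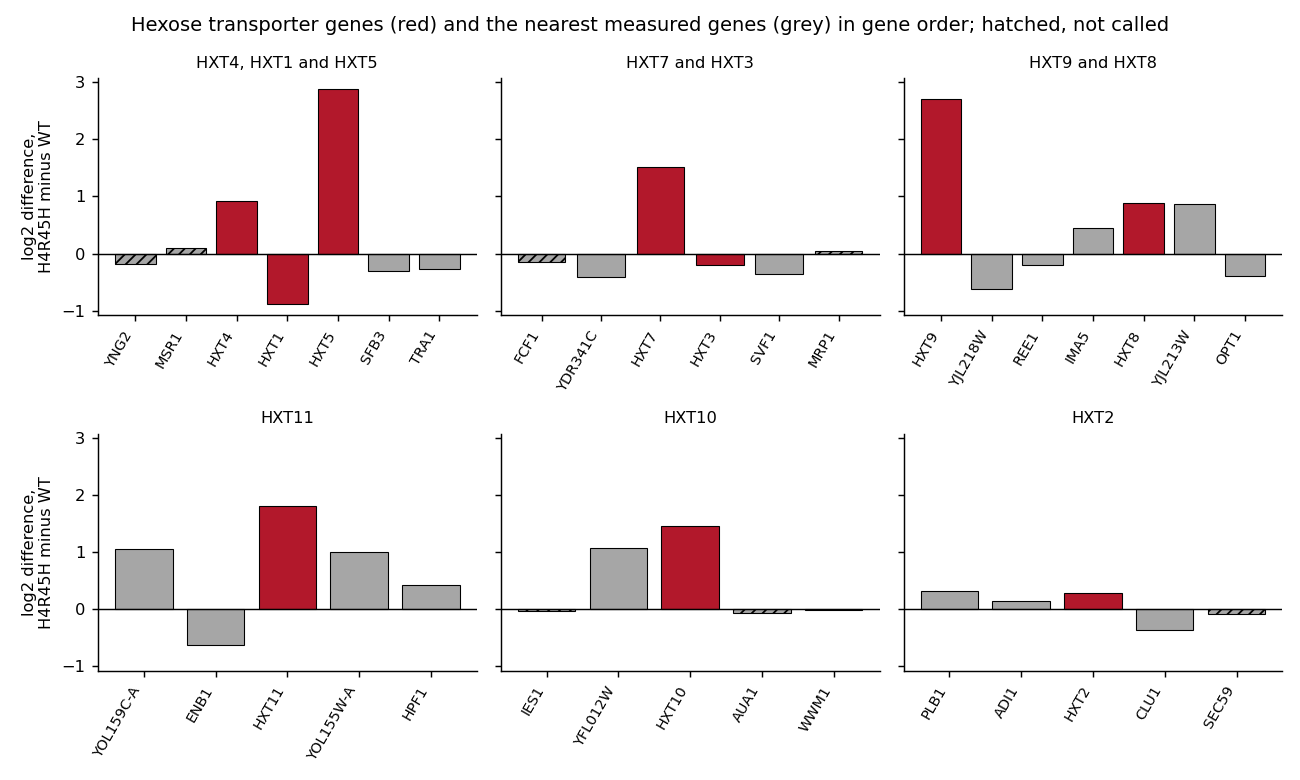
Log2 difference (H4R45H minus wild type) of the 10 transporter genes (red) and of the 2 nearest measured genes on each side (grey), in RefSeq gene order. Hatched bars did not pass the test. HXT1 at -0.89 stands between HXT4 at 0.92 and HXT5 at 2.88, and HXT9 at 2.70 stands beside YJL218W at -0.62.

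Of the other genes of the family, 7 had a probe set, and all had low signals. HXT6, HXT12 and HXT16 had no probe set named for them. HXT13, HXT14 and HXT15, a group of little-used sugar and polyol carriers, had H4R45H means of 9.10, 19.7 and 8.93 and wild-type means of 3.73, 10.6 and 3.67, and were called higher as deposited (2.57-fold, 1.85-fold and 2.45-fold). Like HXT17 and GAL2, they lay in the dimmest of the 20 classes of like mean signal. Of that class 57.7% was called higher (median log2 difference 0.78), beside 37.1% of all genes. There 75, 127 and 82 probe sets had a larger difference than HXT13, HXT14 and HXT15. The calls of HXT13 and HXT14 ended under quantile normalization, at 0.66 for HXT13 (adjusted p = 0.054) and -0.06 for HXT14 (adjusted p = 0.71). After cyclic loess all 3 were lost. These HXT13 values are those of its brighter probe set. The dimmer one, marked as shared, was called higher at 2.89-fold (adjusted p = 2.4e-04 in limma). It kept its call after quantile normalization (log2 difference 0.80, adjusted p = 0.0097) and cyclic loess (0.61, adjusted p = 0.04). With 50 added to every signal it was 1.11-fold higher. For HXT15 the cyclic loess value was 0.39 (adjusted p = 0.15). HXT15 was read by a shared probe set.

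HXT17 had 2 probe sets that differed in their call. The brighter one was at 27.5, 13.9 and 16.7 in H4R45H, against 3.7, 15.5 and 11.6 in wild type, with overlap and no call (adjusted p = 0.054 in limma). That result depended on single arrays and on the pseudocount. It was called with 50 added to every signal (log2 difference 0.20, adjusted p = 0.043). Leaving out wild-type replicate 2 gave a call too (adjusted p = 0.012), while leaving out wild-type replicate 1 lowered the log2 difference to 0.47. The dimmer one was called higher at 2.29-fold, which was lost after quantile normalization (log2 difference 0.37, adjusted p = 0.061). GAL2, the galactose permease, was at 12.0 ± 1.01 in H4R45H and 9.97 ± 1.33 in wild type (SD, n = 3 each) and did not pass (adjusted p = 0.17), and it was called lower after quantile normalization (-0.59, adjusted p = 0.018) and cyclic loess (-0.51, adjusted p = 0.031).

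The glucose sensors are transporter-like proteins that signal and do not carry sugar. SNF3, the sensor for low glucose, had 49.6, 50.8 and 55.2 in H4R45H, against 56.0, 55.2 and 56.2 in wild type. RGT2, the sensor for high glucose, had 69.7, 80.8 and 81.2 in H4R45H, against 55.0, 62.9 and 68.0 in wild type. SNF3 did not pass as deposited (log2 difference -0.11, adjusted p = 0.26), and RGT2 was called higher (0.32, adjusted p = 0.016). Both depended on the scaling. SNF3 had -0.57 after quantile normalization (adjusted p = 1.8e-04) and RGT2 had -0.01 (adjusted p = 0.96). RGT2 also lost its call without wild-type replicate 1 (0.24, adjusted p = 0.062) and without H4R45H replicate 2 (0.29, adjusted p = 0.064).

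In the branch from the sensors to Rgt1, 3 of 10 genes were higher and 4 lower, beside 37.1% and 29.1% of all genes. MTH1, a corepressor that works with Rgt1, rose to 78.0 ± 4.90 in H4R45H, against 47.7 ± 3.72 in wild type (SD, n = 3 each; log2 difference 0.71, adjusted p = 5.4e-05 in limma), and RGT1 itself rose by 0.35 (adjusted p = 7.8e-04). STD1, the paralog of MTH1, fell by 0.26 on the log2 scale (adjusted p = 0.0045). These 3 calls remained under quantile normalization, cyclic loess, median centring and the loss of any 1 array. Those of the kinase YCK2 (-0.15), the corepressor genes CYC8 (-0.15) and TUP1 (-0.20) and of RGT2 did not. Without wild-type replicate 2, H4R45H replicate 1 or H4R45H replicate 2 there was 1 gene lower, without wild-type replicate 1 and after cyclic loess there were 2, and after median centring there were 6.

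In the Snf1-Mig1 branch 2 of 14 genes were higher and 4 lower, and the other 8 did not pass, SNF1 and MIG1 among them. The 4 lower genes include HXK2, which is counted again with the kinase genes below. Its call was lost after quantile normalization and cyclic loess. Of all genes 37.1% were called higher and 29.1% lower. TOS3, a kinase that activates Snf1, rose 1.71-fold (log2 difference 0.78, adjusted p = 3.3e-05 in limma), and SNF4, the regulatory subunit of Snf1, fell by 0.27 on the log2 scale (adjusted p = 0.0033). The calls of SIP1 (-0.26), MIG2 (-0.22) and REG1 (0.19) were lost when single arrays were left out, that of SIP1 without wild-type replicate 1 (-0.18, adjusted p = 0.14) and 3 others. After median centring 8 genes were lower and 1 higher, and after quantile normalization 6 were lower and 1 higher. Without wild-type replicate 2 there were 2 genes lower, and without wild-type replicate 1, wild-type replicate 3 or H4R45H replicate 2 there was 1 gene higher.

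Among activators of genes for other carbon sources, SIP4 rose 3.60-fold, ADR1 2.40-fold and CAT8 2.15-fold, all known to act when glucose is scarce. Of the 5 genes in this list 4 were higher and 1 lower, beside 37.1% and 29.1% of all genes. SIP4 and CAT8 were dim, in a class of like mean signal of which 68.9% was called higher. In that class 22 probe sets had a larger difference than SIP4 and 79 a larger one than CAT8. In the class of ADR1 51.0% were called higher, and 8 had a larger difference than ADR1. After quantile normalization SIP4 was 2.38-fold and CAT8 1.27-fold higher, and with 50 added to every signal they were 1.70-fold and 1.30-fold higher. RDS2 (0.27) lost its call without H4R45H replicate 1, wild-type replicate 1 or wild-type replicate 3 (lowest value 0.19). It also lost it after quantile normalization (0.02, adjusted p = 0.88), cyclic loess (0.08, adjusted p = 0.49) and median centring (0.17, adjusted p = 0.14). HAP4, the activator of respiratory genes, was the one lower (-0.39, adjusted p = 0.017), and it lost that call without H4R45H replicate 1 (-0.29, adjusted p = 0.053), H4R45H replicate 2, wild-type replicate 2 or wild-type replicate 3.

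Of the 4 kinase genes that act on the imported sugar 3 were higher and 1 lower, beside 37.1% and 29.1% of all genes. HXK1, the hexokinase known to be repressed by glucose, had 439.9, 651.0 and 869.3 in H4R45H, against 240.6, 219.2 and 196.5 in wild type. GLK1, the glucokinase, had 745.0, 914.7 and 1047.8 in H4R45H, against 458.5, 489.9 and 417.0 in wild type. For both, as for HXT5, HXT7 and HXT9, H4R45H replicate 3 was the highest array and H4R45H replicate 1 the lowest. HXK1 rose 2.89-fold (adjusted p = 5.5e-05 in limma), the GLK1 paralog EMI2 2.58-fold (adjusted p = 2.3e-06) and GLK1 1.97-fold (adjusted p = 2.3e-05). HXK2, the main hexokinase of cells on glucose and a partner of Mig1, fell to 1107 ± 22.3 in H4R45H, against 1296 ± 61.0 in wild type (SD, n = 3 each). Its log2 difference was -0.23 (adjusted p = 0.0016 in limma). That call was lost after quantile normalization (-0.07, adjusted p = 0.096) and cyclic loess (-0.06, adjusted p = 0.21). In the class of like mean signal that holds HXK2, 73.1% of probe sets were called lower.

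Among regulators linked to HXT5 through stress and slow growth, RIM15, a kinase of entry into quiescence, rose 2.88-fold (log2 difference 1.53, adjusted p = 6.9e-08 in limma) and GIS1, a transcription factor downstream of it, 1.61-fold (adjusted p = 6.4e-05). MSN2 and MSN4, the activators of general stress genes, had log2 differences of -0.03 and 0.19 and did not pass. Of the 4 genes in this list 2 were thus higher and 0 lower, beside 37.1% and 29.1% of all genes. In the classes of like mean signal 51.0% (RIM15) and 35.7% (GIS1) were called higher. In these, 5 probe sets had a larger difference than RIM15 and 34 a larger one than GIS1. With 50 added to every signal the rise of RIM15 was 1.91-fold.

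The list for Pdr1 and Pdr3, named above for HXT9 and HXT11, holds both regulator genes and 8 others. Of its 10 genes 5 were higher and 3 lower, beside 37.1% and 29.1% of all genes. The drug exporters PDR10 (2.51-fold), PDR15 (2.30-fold) and YOR1 (1.51-fold) rose, with adjusted p of 5.6e-08, 2.5e-07 and 1.1e-04 in limma, and so did the polyamine exporter TPO1 (log2 difference 0.32). PDR5, the main drug exporter of the family, fell to 977 ± 81.7 in H4R45H, against 1247 ± 15.6 in wild type (SD, n = 3 each; log2 difference -0.36, adjusted p = 4.1e-04). SNQ2 (-0.20) and PDR16 (-0.21) were lower too. SNQ2 had no call without wild-type replicate 1 (-0.19, adjusted p = 0.064), wild-type replicate 2 or H4R45H replicate 1. SNQ2 also lost its call after quantile normalization (-0.15, adjusted p = 0.076) and cyclic loess (-0.09, adjusted p = 0.29). PDR16 lost its call after cyclic loess (-0.14, adjusted p = 0.068). PDR3 was higher by 0.42 as deposited and had -0.07 after quantile normalization (adjusted p = 0.59), and PDR1 had -0.03 and did not pass.

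Of the sugar permeases outside the HXT genes 4 of 4 measured were higher, and all calls remained under quantile normalization, cyclic loess, median centring and the loss of any 1 array. STL1, the glycerol symporter, rose 3.38-fold, and the maltose permease genes MPH2, MAL11 and MAL31 rose 2.57-fold, 1.88-fold and 1.73-fold. MPH2 was read by a shared probe set. All were dim, and in their classes of like mean signal 57.7% (STL1), 68.9% (MPH2) and 64.0% (MAL11 and MAL31) of probe sets were called higher, against 37.1% of all genes. With 50 added to every signal STL1 was 1.37-fold and MPH2 1.40-fold higher. After quantile normalization these were 1.85-fold and 1.55-fold higher.

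**Figure D5:**
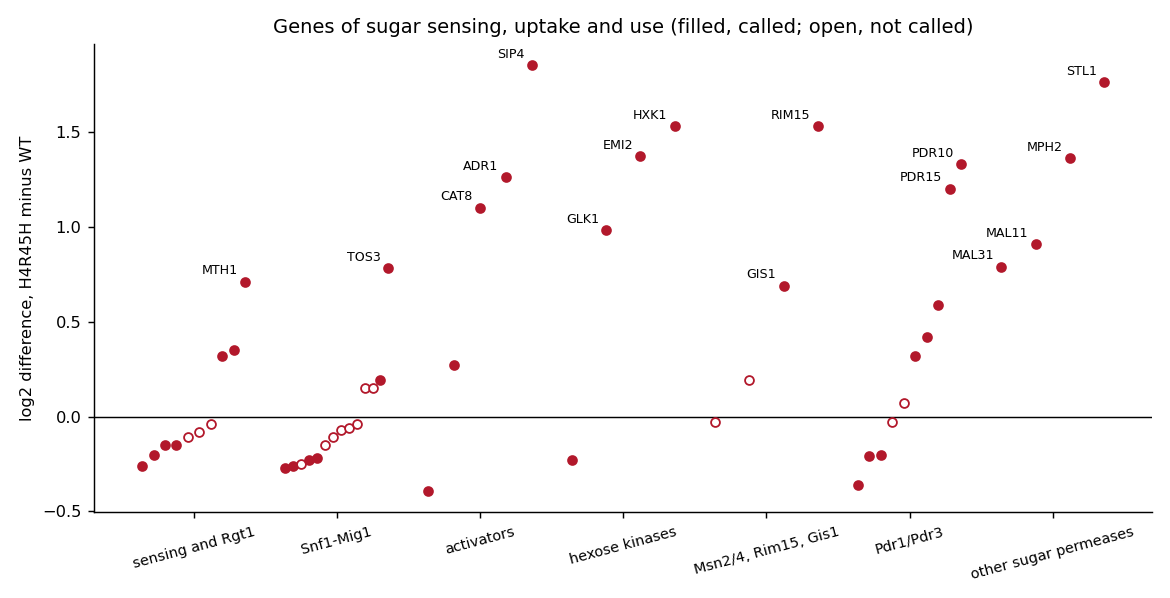
Log2 difference (H4R45H minus wild type) of the genes of 7 lists on sugar sensing, uptake and first use and on regulators linked to HXT5, HXT9 and HXT11, with called genes filled and others open. Genes of sensing and of the Snf1-Mig1 branch lie between -0.27 and 0.78, while SIP4 reaches 1.85, HXK1 1.53 and STL1 1.76.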

How the data were processed

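Total RNA from 3 H4R45H and 3 wild-type samples was measured on 1-colour Affymetrix-type arrays. The authors deposited linear intensities, with 1 value for each probe set. MAS5 made them, per the submitters' processing notes, and the sources used here give neither its version nor its scaling. The precision is limited by the number of arrays. Groups came from the labels. The members and lists were chosen with earlier results of these data known.

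Of 5716 probe sets 5498 had 1 gene in the platform annotation, 0 had several and 218 had none, and all 5449 genes matched the RefSeq table (assembly R64). Where a gene had more than 1 probe set, the one brightest on average (log2) stood for it. Names mark 132 probe sets as shared between transcripts.

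The log2 of each signal was used unscaled, after 7 zeros (3 probe sets) had been raised to 0.1. Strains were compared with limma 3.58.1 (R 4.3.3; lmFit, then eBayes with a variance trend). Two-sided p-values were adjusted over the whole table by the Benjamini-Hochberg method, and calls needed an adjusted p under 0.05. Alternatives were quantile, cyclic loess and median scaling, a pseudocount of 50, no variance trend, a replicate block, a 2-fold minimum, and leaving out the dimmest 25% of probe sets (mean signal under 78.3), shared probe sets, or each array. The fit was tested on simulated data. At most 0.63% of values were identical between 2 arrays.

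The genes named are all 10 members, the other measured family genes, up to 3 called genes per list with the greatest absolute change, and up to 2 called neighbours per member. Other genes of the lists and neighbours were named after their values were seen. Promoter motifs and protein identity were not analysed here, since no sequence was used, and no coordinates are given.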

Additional observations from a re-analysis of the deposited data

How the results depend on the processing

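Of 135 recomputed values of the 10 hexose transporter genes, 131 kept their direction and their side of the threshold, 3 lost the call and 1 reversed, all 4 of them in HXT3 or HXT8. Genes called higher numbered 8 as deposited, 5 with a 2-fold minimum and 4 without the dimmest 25% of probe sets, which leaves 6 of the 10 genes tested. Genes called lower numbered 2 as deposited, 1 after quantile normalization, 1 after cyclic loess and 0 with a 2-fold minimum, where HXT1 falls short. Over all probe sets 3797 were called as deposited and 542 with a 2-fold minimum. Leaving out single arrays changed no call of the 10 genes. HXT8 turned to -0.04 after cyclic loess. Outside the 10 genes, quantile normalization turned HXT14 to -0.06, GAL2 to -0.59, RGT2 to -0.01, PDR3 to -0.07, IMA5 to -0.28 and the median of the other family genes to -0.01 (0.89 as deposited), and cyclic loess turned GAL2 to -0.51 and IMA5 to -0.16. The cause was not tested. The median log2 difference of all probe sets was 0.06 as deposited, -0.06 after quantile normalization and -0.04 after median centring. With 50 added to every signal the median of the 10 genes was 0.62, against 1.19 as deposited. Signals near the bottom of the scale limit HXT8, HXT10 and the other family genes. The planned motif count was not run.

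With the replicate block, 8 of the 10 genes were higher and 2 lower, as without it, and 3665 probe sets were called. Same-numbered arrays had correlations of -0.0342 to 0.0273 in their deviations from the strain means, so the numbers give no sign of pairing. Of the genes named, the block ended the calls of YCK2 and CYC8 (adjusted p = 0.065 and 0.066).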
